A study of Homo sapiens with 13 samples.

Results

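A lentiviral line labelled for miR-301a together with miR-454 was compared with its vector line in A549, a human lung adenocarcinoma cell line, by RNA sequencing of poly(A) RNA. The comparison rested on 1 library of each kind, labelled LV-3+4 and LV-vector-34, out of 13 libraries in the series, and on the genes that had 20 or more reads in the pair and a level of 1 CPM or more, the count normalised to library size, in at least one of them. Of 39735 genes in the table that holds both libraries, 14719 met this minimum. Per the series' design text, both are stable lines made with a lentiviral pCDH vector that carries a CMV promoter. The treated line was meant to overexpress both microRNAs and the control line is labelled as vector. The sources used here do not say how many cultures or clones stand behind a library. The same table holds the lines labelled for 1 microRNA each, LV-miR301a and LV-miR454, and 3 lines of a CRISPR deletion experiment, labelled CRISPRd_miR301a-#2, CRISPRd_miR454-#1 and CRISPRd_Control, which serve below as a measure of how far libraries of A549 lay apart. Each line was sequenced as 1 library, so the ratios are between single libraries and cannot be checked against the spread between replicates. Where they differ in bulk RNA, fewer cells of a type and less RNA per cell cannot be told apart.

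A microRNA guides Argonaute proteins to messages that pair with its seed, the bases near its 5′ end, and the messages are then repressed in translation or degraded. Sites that pair with the whole seed and have an adenine opposite the first base of the microRNA, called 8mers, lower message levels most, while shorter 7mer sites act more weakly, and single messages usually move little. MIR301A and MIR454 both lie in introns of SKA2, which encodes a subunit of a kinetochore complex. Their family has been studied in cancer cells for its pairing with messages of growth control, TGF-beta receptors and SMADs, which connects it to PI3K-AKT and TGF-beta signalling.

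The mature strands of both microRNAs are shown because the comparison turns on what they share. The sequences are those of RefSeq (GRCh38.p14, written 5′ to 3′), with the seed, bases 2 to 8, in capitals. They come from the minus strand at chr17:59151149-59151171 for miR-301a and chr17:59137787-59137809 for miR-454.
hsa-miR-301a-3p: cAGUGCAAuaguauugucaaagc
hsa-miR-454-3p: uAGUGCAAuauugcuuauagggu
Both have the seed AGUGCAA. They were identical from base 2 to base 10 and had the same base at 13 positions in all. Of 2370 mature names in the RefSeq table, 6 had this seed, the others being miR-130b-3p, miR-301b-3p, miR-3666 and miR-4295. Members that this table lacks are not counted, so the 6 need not be the whole family. The message sites that pair with it are the 8mer TTGCACTA and the 7mers TTGCACT and TGCACTA, each of which is contained in the 8mer. Examples from the longest annotated 3′ UTR (GENCODE 29, GRCh38), with the 8mer in capitals and 10 bases on each side, are given for 6 genes whose levels are described below. They come from a ranking, described below, of 385 8mer genes at 5 CPM or more. The first 5 were among those ranked lowest in the library labelled LV-3+4, and POU6F1 was ranked highest. All 6 were chosen after their values were seen.
PTP4A2: tcaggggctcTTGCACTAttttcacctc
CALM2: tacttaaaagTTGCACTAttgcaaaacg
FOSL1: ctagcacaatTTGCACTAaatcagagac
SPHK2: gcgctaggatTTGCACTAatgttcctct
INHBA: cgtttactatTTGCACTAcaatggtgtt
POU6F1: gcggggaaaaTTGCACTAaaacagaacc
In the order listed, the 8mers lie in 3′ UTRs at chr1:31907301-31907308 (minus strand), chr2:47160365-47160372 (minus), chr11:65892660-65892667 (minus), chr19:48630267-48630274 (plus), chr7:41688692-41688699 (minus) and chr12:51189564-51189571 (minus).

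The introduced loci were read first as a check of the labels. MIR301A reads numbered 34 in the library labelled LV-3+4, or 1.77 CPM (exact 95% Poisson interval 1.23 to 2.48), against 0 counts in LV-vector-34. With 3 counts (0.157 CPM) taken for the vector's 0, this was 11.3-fold higher. The exact 95% interval of the ratio to the vector's 0 counts began at 8.7-fold. The level was close to the 29 counts, or 1.49 CPM (0.997 to 2.14), of the library labelled LV-miR301a. MIR454 had 0 counts in the library labelled LV-3+4, with an exact 95% interval up to 0.193 CPM, and 0 in LV-vector-34. The same locus had 468 counts in LV-miR454, or 24.7 CPM (22.5 to 27.1), and 28 counts in the library labelled LV-miR301a. The counts of the library labelled LV-3+4 therefore showed the first microRNA's locus and not the second's, which goes against its label. By these reads LV-miR301a, labelled for 1 microRNA, was the library that held both loci. Whether the labels of these 2 libraries were exchanged was not tested. If they were, each value given for the library labelled LV-3+4 would belong to a line made with miR-301a alone. Poly(A) RNA does not hold mature microRNAs, and these reads give no level of either. MIR301B, MIR130A and MIR130B, which encode further members or close relatives of the family, had 0 counts in all 7 libraries of the table.

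The host gene and its neighbour stood at the vector's level. SKA2 had 65.5 CPM in the library labelled LV-3+4, against 63.1 CPM in LV-vector-34, or 104% (exact 95% interval of the ratio 95.8 to 112%). PRR11, a cell cycle gene that shares its promoter with SKA2, had 141 CPM in the library labelled LV-3+4, against 140 CPM in the vector (101%, 95.4 to 106%). Of 16 measured genes around the unit on chromosome 17, 1 had a counting interval above equality (6.25%) and 2 below it (12.5%). Over all measured genes these shares were 10.0% and 8.53%. RNFT1, a membrane protein with a RING finger, had 11.0 CPM in the library labelled LV-3+4, against 14.1 CPM in LV-vector-34, and PPM1E, a protein phosphatase, had 1.10 against 0.733 CPM, an interval that included equality. The Argonaute gene AGO4 had 13.5 CPM in the library labelled LV-3+4, against 10.4 CPM in the vector (1.29-fold, 1.07 to 1.56). XPO5, the exporter of microRNA precursors, had 69.2 against 60.2 CPM in the same order (1.15-fold, 1.06 to 1.25). They were among 15 genes of microRNA processing and silencing, of which 3 had intervals above equality (20%, against 10.0% of all genes) and 0 below. The median log2 ratio of the 15 was -0.00, with 7 above 0 and 8 below.

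Both libraries were of the same depth, with 18960321 counts in the library labelled LV-3+4 and 18874848 in LV-vector-34, and the table ran from 18874848 to 19172634. Both carried the profile of A549. ALDH1A1, an aldehyde dehydrogenase abundant in this line, had 8535 CPM in the library labelled LV-3+4, against 8332 CPM in the vector, and the keratin KRT8 had 4232 against 4397 CPM. CDKN2A and CDKN2B, which are deleted in A549, had 0 counts in the library labelled LV-3+4, against 1 and 0 in the vector. The lung lineage factor NKX2-1 and the surfactant gene SFTPC, which A549 largely lacks, had 3 or fewer counts in either library. The summed level of 10 fibroblast markers was 54.7 CPM in the library labelled LV-3+4, against 40.7 CPM in the vector. Most of it came from the collagens COL1A1 and COL3A1, while COL1A2, DCN and LUM were under 1 CPM in both. The summed level of 10 immune markers was 56.7 against 69.2 CPM, nearly all of it CD68, a lysosomal protein of macrophages that many other cells also make, while CD3D, CD3E and MS4A1 were at 0 in both and PTPRC had 0 against 3 counts. The summed level of 10 markers of HEK293, the packaging line of many lentiviral preparations, was 757 against 775 CPM. Most of it was UCHL1, at 624 against 648 CPM, while SOX2 had 1.1 against 1.31 CPM and NEFM and NEFH were under 1 CPM in both.

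The library labelled LV-3+4 lay close to its vector. Ratios are given as log2 of the ratio of CPM plus 0.5, which understates the differences of low genes, and folds are plain ratios of CPM. A gene was called when it was past 2-fold on this scale (a log2 ratio of 1 or more, or of -1 or less) and equality lay outside the 95% counting interval of its ratio, computed by the exact Clopper-Pearson method. By this rule 95 genes were called, or 0.645% of the 14719 measured, with 42 higher (0.285%) and 53 lower (0.360%) in the library labelled LV-3+4. The middle 50% of all genes had log2 ratios from -0.09 to 0.09, and 95% of them lay between -0.45 and 0.44. Called genes were low in expression. Of 3287 genes with a mean under 5 CPM, 75 were called (2.28%), of 3606 genes at 5 to 20 CPM, 19 (0.527%), and of 5897 genes at 20 to 100 CPM, 0. Above 100 CPM, SENP3 was the 1 called gene among 1929. Of the 95, 14 had 0 counts in the library labelled LV-3+4 and 10 had 0 in the vector.

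**Figure D1:**
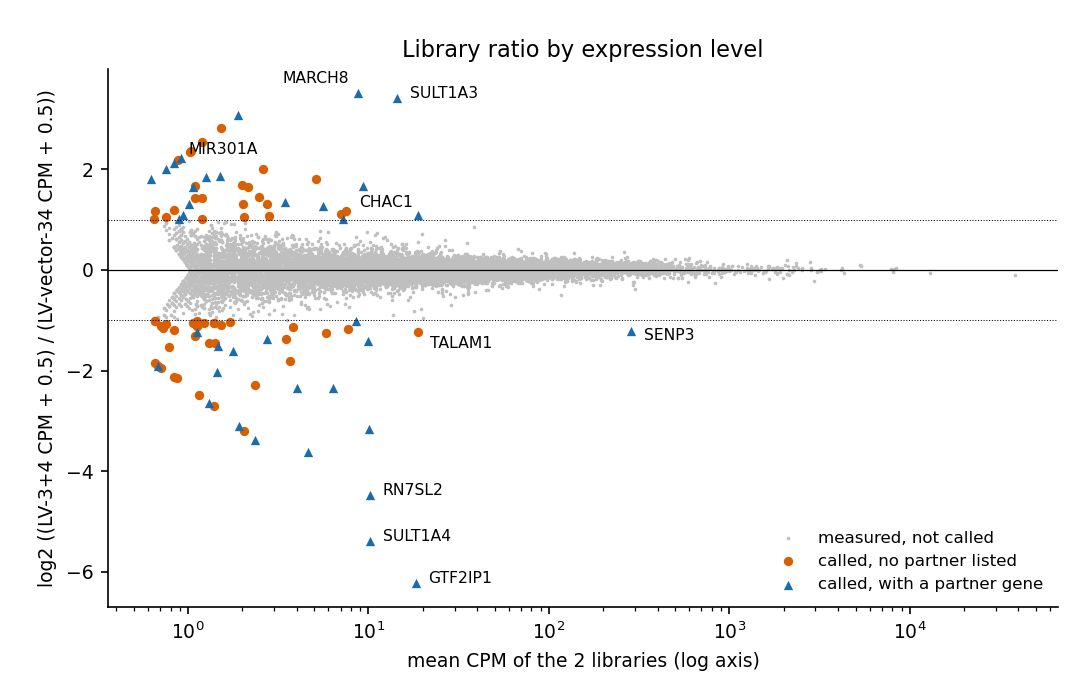
Each point is 1 gene: the horizontal axis is its mean CPM over the library labelled LV-3+4 and LV-vector-34 (log axis), the vertical axis the log2 ratio of CPM plus 0.5, library labelled LV-3+4 over LV-vector-34, with dotted lines at 2-fold. The 95 called genes are coloured, triangles being those with a partner gene, and all but SENP3 lie under 100 CPM.

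The library labelled LV-3+4 had few calls against the library labelled LV-miR301a and against the vector, and many against the others. Against the library labelled LV-miR301a it had 33 genes higher and 50 lower, or 0.562% of 14758 measured. At any size of ratio, 23% of genes had a counting interval that excluded equality against the library labelled LV-miR301a and 18.6% against the vector, so by this count it lay nearer the vector. Against LV-miR454 it had 552 higher and 468 lower (6.85% of 14893), and against CRISPRd_Control 393 higher and 255 lower (4.36% of 14847). The control lines of the 2 experiments, LV-vector-34 over CRISPRd_Control, differed in 646 genes (4.35% of 14851). LV-miR454 over the same vector had 953 called genes (6.39%) and the library labelled LV-miR301a 108 (0.731%). The last pair and the comparison of the library labelled LV-3+4 share the vector library. The number of genes called for the library labelled LV-3+4 was thus below that between control lines of this table and far below that of LV-miR454.

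Many of the largest differences stood in entries that overlap another gene. Readthrough transcripts, which run from 1 gene into the next, were 0.462% of the measured genes and 18.9% of those called, with 18 of 68 called (26.5%). By comparison 33 of 12722 other coding genes were called (0.259%). RSEM, the estimator named in the submitters' processing notes, divides reads that match several genes among them, so the counts of such entries are uncertain. HSPE1-MOB4, a readthrough of a mitochondrial chaperone gene, had 72 counts in the library labelled LV-3+4, against 0 in LV-vector-34, and its parts HSPE1 and MOB4 had 4291 against 4932 counts. POC1B-GALNT4 had 0 against 90 counts, and its parts had 736 against 632 counts (116%, 104 to 129%). RBM14-RBM4, a readthrough of 2 RNA-binding protein genes, had 5 against 171 counts, and BORCS7-ASMT had 0 against 73. The parts of these 2 had ratios of 102% (97.1 to 108%) and 97.7% (81.5 to 117%), with intervals that included equality.

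Near-identical copies and overlapping genes were called in the same way. SULT1A3 and SULT1A4 encode the same sulfotransferase of catecholamines from neighbouring copies on chromosome 16. SULT1A3 had 513 counts in the library labelled LV-3+4, against 39 in LV-vector-34, and SULT1A4 had 0 against 391. Together they had 26.8 CPM in the library labelled LV-3+4 and 22.5 CPM in the vector, a log2 ratio of 0.25. MARCH8, a membrane ubiquitin ligase, had 316 against 19 counts, the highest log2 ratio of all measured genes (3.51). The table stores part of this gene's counts under a date, and that entry had 275 against 473 counts, the opposite direction. GTF2IP1, a pseudogene of the transcription factor gene GTF2I, had 0 against 701 counts. With 3 counts taken for the 0, this was 234-fold lower than in the vector, and the interval bound nearest equality was 190-fold. GTF2I and the copy GTF2IP4 had 10568 against 9641 counts (109%, 106 to 112%). PLSCR3, a phospholipid scramblase, had 490 against 225 counts, and the overlapping TMEM256 and their readthrough 1824 against 2069 (87.9%, 82.5 to 93.7%). U2AF1L5, a copy of the splicing factor gene U2AF1, had 35 against 0 counts, and U2AF1 had 1106 against 1097.

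SENP3 differed from these. This SUMO protease had 171 CPM in the library labelled LV-3+4, against 400 CPM in the vector (2.33-fold lower, 2.24 to 2.43). The adjacent EIF4A1, with which it shares a readthrough, had 1204 against 1159 CPM, so the difference of 228 CPM in SENP3 stood beside one of 45 CPM in the other direction. SENP3 was at 187 CPM in the library labelled LV-miR301a, 537 in LV-miR454 and 187 in CRISPRd_Control.

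Further called entries with partners at 5 CPM or more were BCL2L2-PABPN1, with 277 counts in the library labelled LV-3+4 and 80 in LV-vector-34, NPIPA5 with 156 against 59 and GPR75-ASB3 with 187 against 88. In the other direction RAD51L3-RFFL had 19 against 135 counts, RGPD6 34 against 210 and FAM156A 99 against 280. The partner of FAM156A had 592 against 420 counts and the parts of GPR75-ASB3 224 against 324, each about as large a difference with the opposite sign. Over 35 sets of overlapping or copied genes, which held 37 of the 95 called entries, the partners had an interval in the opposite direction beside 18 entries, in the same direction beside 2 and one that included equality beside 17. In most sets the called entry is a small part of the reads, so a sum over the set says little: for 34 of the 37 the sum could not have passed 2-fold with the partners at the vector's level. The sets outside the readthroughs were chosen by hand after the called names were seen.

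**Figure D2:**
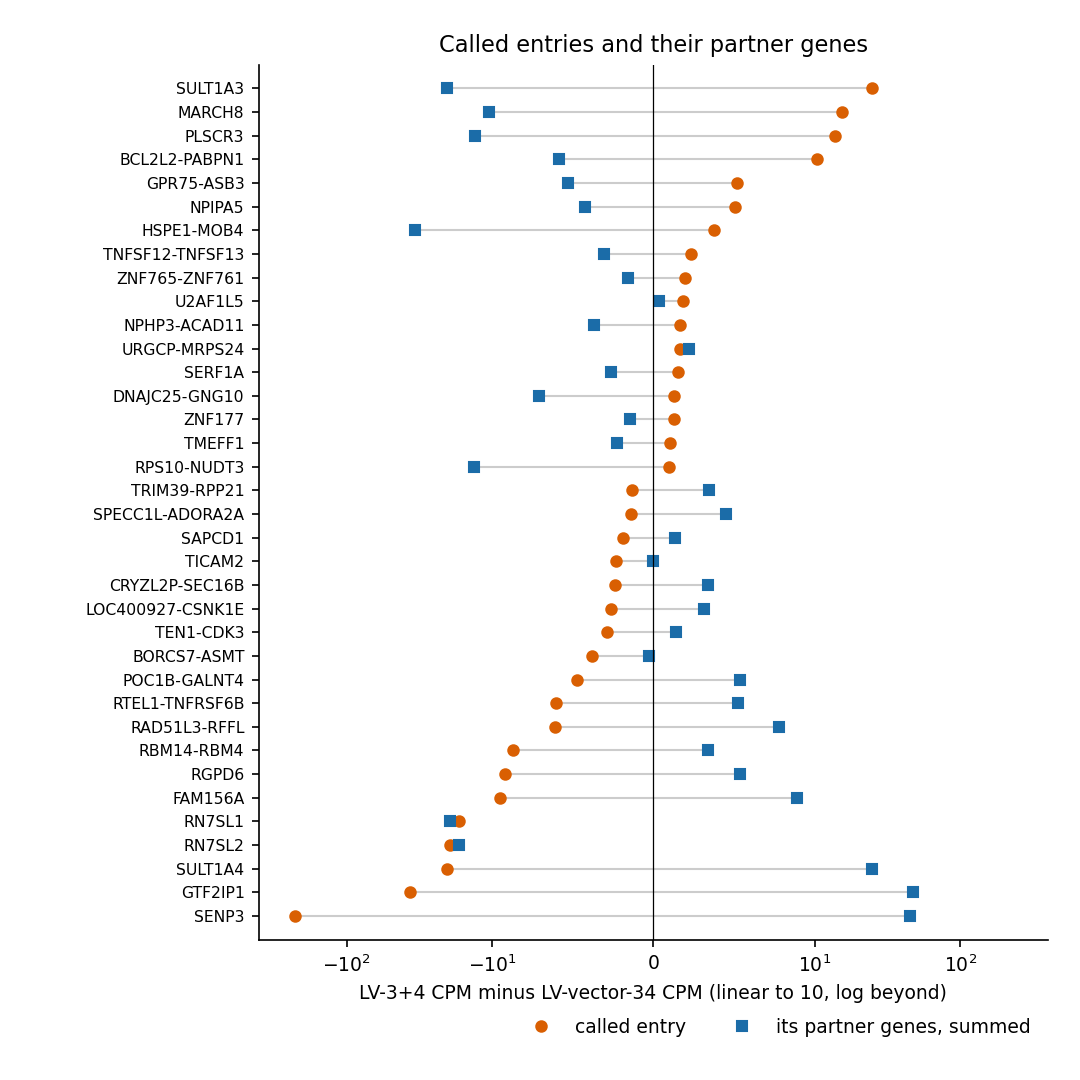
Difference in CPM between the library labelled LV-3+4 and LV-vector-34, on an axis linear to 10 and logarithmic beyond, for 36 called entries (circles) and for their partner genes summed (squares). Beside SULT1A3, MARCH8, PLSCR3, GTF2IP1 and FAM156A the partners lie on the other side of 0, and RN7SL1 and RN7SL2 lie on the same side.

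The pair in which both copies lay lower was the RNA of the signal recognition particle, a noncoding RNA that helps deliver nascent proteins to the endoplasmic reticulum. RN7SL1 had 1.62 CPM in the library labelled LV-3+4, against 18.5 CPM in LV-vector-34 (11.4-fold lower, 7.92 to 17.1), and RN7SL2 had 8 against 383 counts (48.0-fold lower, 24.1 to 112). Together they had 39 against 737 counts. The vector was the library that stood apart. The other 5 libraries of the table had 1.03 to 5.07 CPM of RN7SL1 and 0.557 to 0.924 CPM of RN7SL2. This RNA is not polyadenylated, and its part in other differences between the libraries was not tested.

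Among the 58 called entries with no partner listed, 22 were uncharacterised LOC entries, 9 pseudogenes, 6 noncoding RNAs, 3 small RNAs and 18 coding genes. Many of the coding genes belong to families of near-identical copies too (GOLGA8J, GOLGA8K, GOLGA8O, GOLGA8T, GOLGA6L10, TBC1D3H, LRRC37A, TP53TG3, TP53TG3C and C4A), so their counts are uncertain as well. In that group, 9 entries reached 5 CPM, 3 higher and 6 lower. GOLGA8T, of a golgin family, had 157 counts in the library labelled LV-3+4, against 38 in LV-vector-34. The uncharacterised entry LOC727751 had 188 against 82 counts, and LOC100129129 had 33 against 100. ITPKB, TMEM238 and DUXAP8 below were picked from the 58 after their values were seen.

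CHAC1, which degrades glutathione and is a target of the stress factor ATF4, was called higher, and at 5 CPM or more it was the 1 such gene outside the partner sets, copied families and LOC entries. It had 204 counts in the library labelled LV-3+4, against 85 in LV-vector-34, or 10.6 against 4.45 CPM (2.39-fold, 1.85 to 3.12). CHAC1 also varied across the other libraries, at 6.52 CPM in the library labelled LV-miR301a, 3.80 in LV-miR454, 6.09 in CRISPRd_miR301a-#2, 9.44 in CRISPRd_miR454-#1 and 19.1 in CRISPRd_Control. The library labelled LV-3+4 thus lay between the levels of the 2 control lines. ITPKB, an inositol trisphosphate kinase, had 76 against 31 counts (2.45-fold higher, 1.59 to 3.84). Its level of 3.97 CPM was near those of the library labelled LV-miR301a (4.00), LV-miR454 (4.49) and CRISPRd_Control (4.91). The vector's 1.62 CPM was the lowest of the 7, but near those of CRISPRd_miR301a-#2 (1.72) and CRISPRd_miR454-#1 (2.03).

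TMEM238, a small membrane protein, had 62 counts in the library labelled LV-3+4, against 160 in LV-vector-34 (3.24 against 8.37 CPM, 2.59-fold lower, 1.92 to 3.53). In TMEM238 the library labelled LV-3+4 was the lowest of the 7, the other 5 running from 4.31 CPM in CRISPRd_Control to 10.2 CPM in CRISPRd_miR301a-#2. The pseudogene DUXAP8 had the same form, with 4.54 against 10.8 CPM (2.39-fold lower, 1.85 to 3.10) and 9.70 to 15.3 CPM in the other 5. IMPG2, a proteoglycan of the retinal matrix, had 1.36 against 6.02 CPM (4.43-fold lower, 2.88 to 7.07). In IMPG2 the library labelled LV-3+4 was near the library labelled LV-miR301a (1.90) and CRISPRd_Control (1.82), and the vector was near LV-miR454 (5.70). TALAM1, the antisense partner of MALAT1, had 11.0 against 26.6 CPM (2.41-fold lower, 2.05 to 2.85), while MALAT1 had 88.5 against 93.4 CPM. The sources used here do not give the strand setting of the counting, so reads of the pair cannot be told apart.

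**Figure D3:**
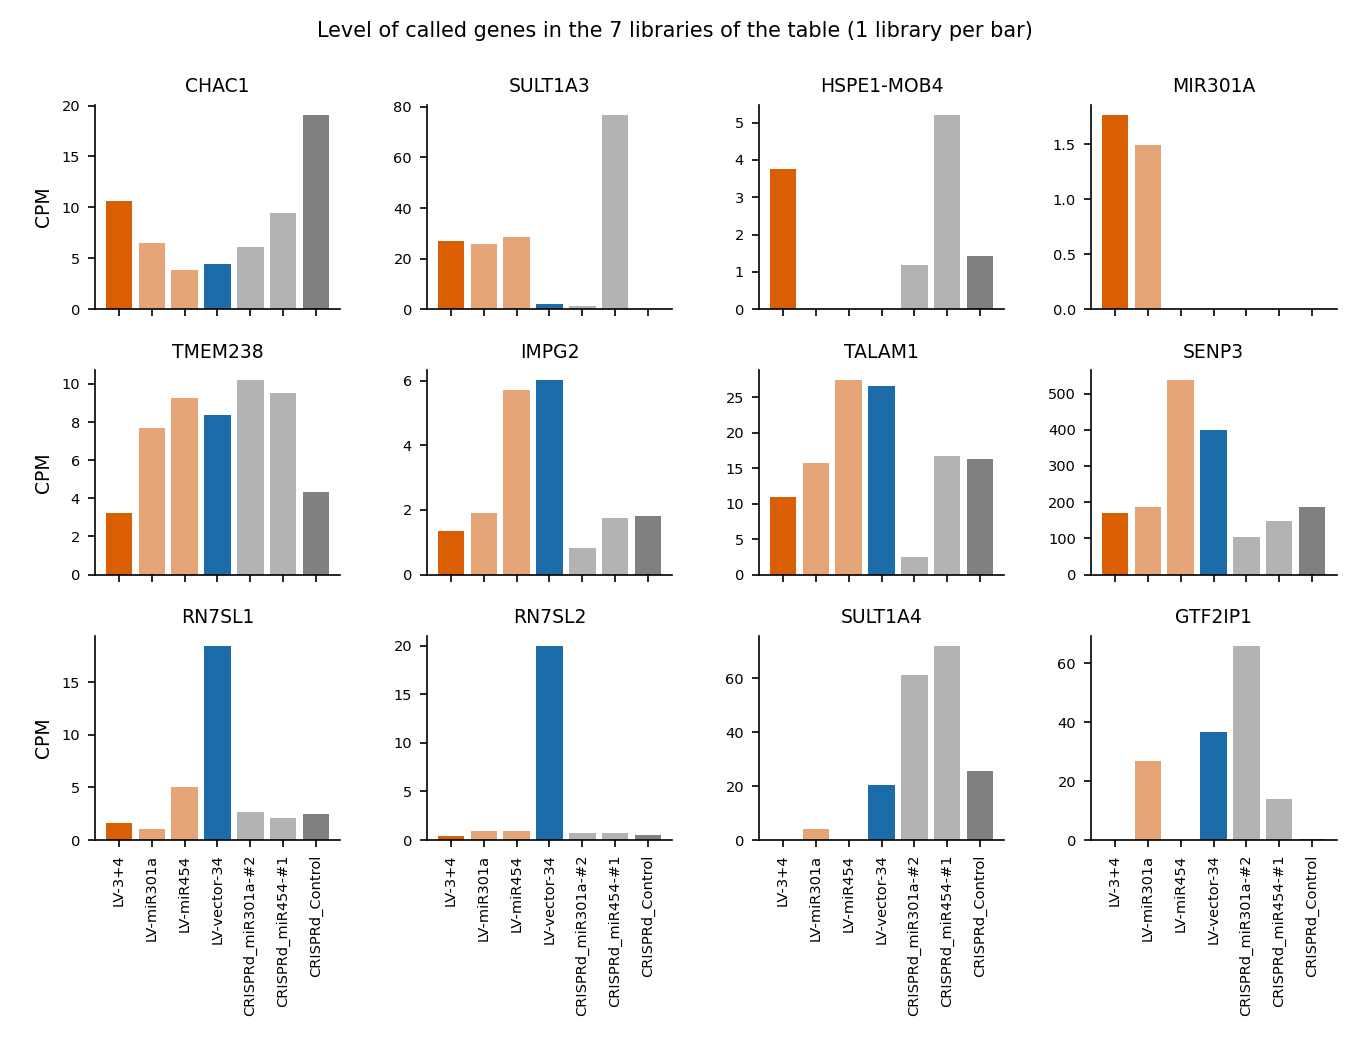
CPM of 12 called genes in the 7 libraries of the table, 1 library per bar, from LV-3+4 at the left to CRISPRd_Control at the right, with a separate linear axis from 0 for each gene. RN7SL1 and RN7SL2 are high in LV-vector-34 alone, TMEM238 is lowest in LV-3+4, and CHAC1 in LV-3+4 lies between the 2 control lines.

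Of the 95 called genes, 14 were also at least 2-fold, in the same direction, from the libraries labelled LV-miR301a and LV-miR454, 8 higher and 6 lower. The first 6 by the interval bound nearest equality were POC1B-GALNT4, BORCS7-ASMT, HSPE1-MOB4, U2AF1L5, LIMD1-AS1 and ZNF177. LIMD1-AS1, antisense to LIMD1, had 0 counts in the library labelled LV-3+4, against 33 in LV-vector-34, while LIMD1 itself had 119 against 120 CPM. ZNF177, a zinc finger gene, had 24 against 0 counts, and ZNF559 and their readthrough had 64 against 91 (70.1%, 50.1 to 97.6%). The other 4 are given above with their partners. The comparisons with the vector, LV-miR301a and LV-miR454 share the library labelled LV-3+4, so they do not repeat one another. Over all measured genes, 0.562% were called against the library labelled LV-miR301a and 6.85% against LV-miR454.

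Because so few genes passed 2-fold, gene groups were also described by the counting interval alone, at any size of ratio. By that rule 2731 genes (18.6%) excluded equality, 1476 above it (10.0%) and 1255 below it (8.53%). The interval covers counting error only and narrows with depth, so the share depends on expression. It was 5.63% above and 5.78% below among genes under 5 CPM, 10.1% and 9.36% at 20 to 100 CPM, and 25.7% and 15.9% above 100 CPM. Of 26 gene lists with measured members, apart from the marker lists above, 1 held a called gene, CHAC1. List members named here beyond the 2 with the largest ratios were picked after their values were seen.

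PI3K-AKT signalling, the pathway named in the series' title, lay near the vector in these messages. Of 30 core genes, 0 were called, 5 had intervals above equality and 2 below, and the median log2 ratio was 0.05, against 0.00 over all genes. PIK3R3, a regulatory subunit, had 2.56 CPM in the library labelled LV-3+4, against 3.24 CPM in LV-vector-34, and the transcription factor FOXO4 had 6.78 against 5.70 CPM, both with intervals that included equality. Of 20 brakes on the pathway, 0 were called, with 2 intervals above, 2 below and a median of 0.01. PHLPP1, a phosphatase of AKT, had 39.5 CPM in the library labelled LV-3+4, against 33.9 CPM in LV-vector-34 (117%, 105 to 130%), and its relative PHLPP2 20.7 against 22.9 CPM (90.4%, 78.7 to 104%). PIK3IP1, an inhibitor of PI3K, had 18 counts in the library labelled LV-3+4, against 39 in LV-vector-34 (46%, 24.8 to 82.4%), a log2 ratio of -0.82. It was at 2.10 CPM in the library labelled LV-miR301a, with 1.80 CPM in LV-miR454. The lipid phosphatases INPP4B (9.29 against 7.69 CPM) and INPP5D (2.09 against 1.31 CPM) had intervals that included equality. Of 16 FOXO targets, which AKT restrains through FOXO factors, 0 had an interval that excluded equality, and their median was -0.02. FBXO32, a ubiquitin ligase of muscle wasting, had 4.64 against 3.71 CPM, and CCNG2, an atypical cyclin, 8.09 against 9.89 CPM.

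Of 32 measured genes reported as targets of the seed family, 0 were called. Of these, 9 had intervals below equality (28.1%, against 8.53% of all genes) and 3 above (9.38%, against 10.0%), with a median of -0.02. The median was -0.00 in the library labelled LV-miR301a, with 0.02 in LV-miR454, each over the same vector. Annotated 3′ UTRs held an 8mer in 8 of the 32, a 7mer alone in 21 and no site in 3.

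Receptors and ligands of the TGF-beta family were split. The type I receptor TGFBR1 had 21.7 CPM in the library labelled LV-3+4, against 25.2 CPM in LV-vector-34 (86.3%, 75.5 to 98.6%), and ACVR1, a BMP type I receptor with an 8mer, 21.3 against 25.4 CPM (83.9%, 73.4 to 95.9%). INHBB, an activin subunit, had 34.9 against 41.1 CPM (84.8%, 76.3 to 94.1%). The BMP type II receptor BMPR2 was on the other side, at 70.0 against 61.6 CPM (114%, 105 to 123%). TGFBR2 (83.3 against 86.9 CPM), SMAD4 (39.2 against 38.2) and SMAD5 (49.0 against 50.5), the transducers of the signal, had intervals that included equality.

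Among reported targets that restrain growth, CDKN1A, the inhibitor of cyclin-dependent kinases, had 136 CPM in the library labelled LV-3+4, against 163 CPM in LV-vector-34 (83.5%, 79.3 to 88.0%). It stood at 191 CPM in the library labelled LV-miR301a, with 228 CPM in LV-miR454, on the other side of the vector. BTG1, an antiproliferative gene with an 8mer, had 147 against 156 CPM (94.2%, 89.4 to 99.2%). TSC1 (20.4 against 19.3 CPM), which restrains mTOR, RUNX3 (27.8 against 27.6) and NDRG2 (14.9 against 14.2) had intervals that included equality. Of these, TSC1 and RUNX3 also hold 8mers. The interferon factor IRF1, which holds an 8mer and 3 shorter sites, had 20.3 against 25.1 CPM (81.0%, 70.7 to 92.8%). MET, the hepatocyte growth factor receptor, which holds an 8mer, had 222 against 244 CPM (90.6%, 86.9 to 94.5%). The macrophage growth factor CSF1 had 54.5 against 60.7 CPM (89.9%, 82.6 to 97.8%). The lipid exporter ABCA1 had the lowest ratio of the list, 4.49 against 5.96 CPM (75.2%, 56.2 to 100%), with an interval that reached equality. TIMP2, an inhibitor of metalloproteinases, and the adhesion molecule CADM1 lay above the vector, at 183 against 164 CPM (111%, 106 to 117%) and 29 against 25.5 CPM (114%, 100 to 129%).

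Over all coding genes, those with an 8mer lay slightly below the others. Of 12724 measured coding genes with an annotated 3′ UTR, 426 held an 8mer, 2144 a 7mer alone and 10154 no site. Among all 19128 annotated genes, 2.80% held an 8mer and 14.5% a 7mer alone. The median log2 ratio of the library labelled LV-3+4 over LV-vector-34 was -0.033 for 8mer genes, -0.003 for 7mer genes and 0.008 for genes without a site. Intervals below equality were found for 17.1% of 8mer genes, 9.79% of 7mer genes and 8.15% of genes without a site. Intervals above equality were found for 5.63%, 9.42% and 10.8%. By the 2-fold rule, 1 of the 426 8mer genes was called higher and 0 lower. Of the 10154 genes without a site, 18 were called higher and 15 lower. The median level in the vector was alike, 27.2, 28.2 and 27.8 CPM, but 8mer genes had longer UTRs (median 3286 bases, against 2947 and 1101). With more sites of any kind the medians were 0.008 for 0 sites, -0.003 for 1, -0.015 for 2 and -0.025 for 3 or more. These are differences of a few percent in 1 pair of libraries, and no test of them was made.

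**Figure D4:**
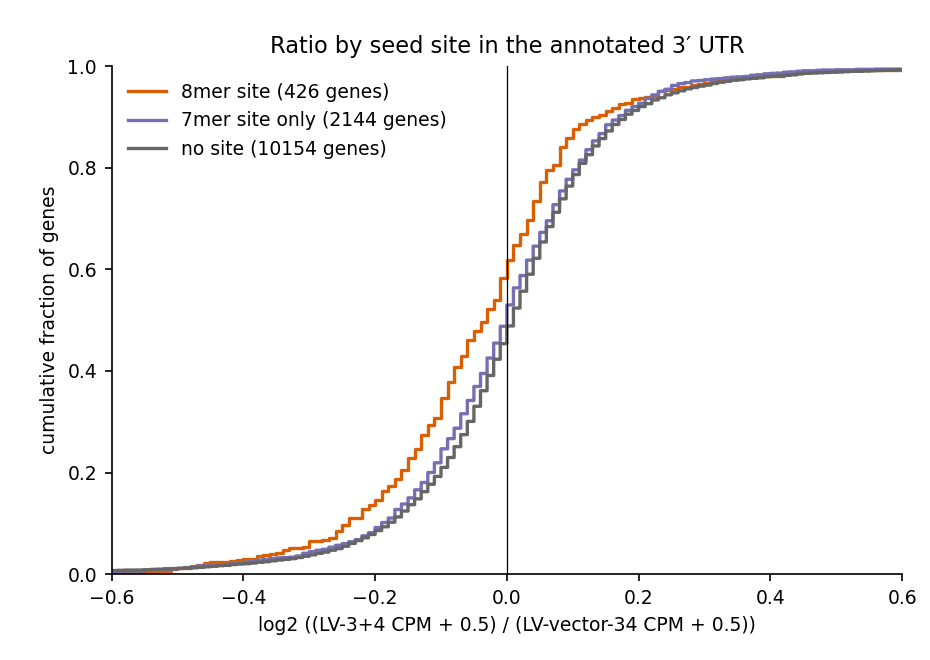
Cumulative fraction of genes by their log2 ratio, library labelled LV-3+4 over LV-vector-34, for coding genes with an 8mer (426), a 7mer alone (2144) or no site (10154). The curve of the 8mer genes lies left of the others (median -0.033, against -0.003 and 0.008), and all curves meet further to the right.

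The median of 8mer genes was below that of genes without a site in each tertile of UTR length. In the shortest tertile, with UTRs up to 807 bases, 27 genes with an 8mer had a median of -0.087, against -0.002 for genes without a site. In the middle tertile, up to 2180 bases, 104 such genes were at -0.055, against 0.013, and in the longest tertile 295 were at -0.018, against 0.014. By expression, the medians of 8mer genes and of genes without a site were -0.055 and 0.003 in the lowest tertile, -0.033 and 0.002 in the middle and -0.027 and 0.015 in the highest. The other lentiviral libraries, which share the vector, had 8mer medians of -0.045 (library labelled LV-miR301a) and -0.036 (LV-miR454), against 0.003 and 0.009 without a site. In the shortest tertile of UTR length the 8mer median was -0.204 in the library labelled LV-miR301a, against -0.028 without a site, but 0.10 in LV-miR454, against 0.016. In the deletion lines, which were read against another control, the 8mer genes lay higher. Their medians over CRISPRd_Control were 0.050 in CRISPRd_miR301a-#2 and 0.027 in CRISPRd_miR454-#1, against -0.033 and -0.025 for genes without a site. In the shortest tertile the order turned for CRISPRd_miR301a-#2, at -0.216 for 29 genes with an 8mer and -0.051 without a site.

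Of 385 8mer genes at 5 CPM or more, 71 had intervals below equality and 22 above. Ranked by the interval's bound, a choice made after the values were seen, the first was INHBA, the activin A subunit, with 63 counts in the library labelled LV-3+4, against 115 in LV-vector-34 (54.6%, 39.5 to 74.9%). PTP4A2, a prenylated phosphatase, had 262 against 340 CPM (77.0%, 74.2 to 79.9%). CALM2, which encodes the calcium sensor calmodulin, had 540 against 637 CPM (84.8%, 82.6 to 87.1%). FOSL1, a subunit of the AP-1 factor, had 31.1 against 40.4 CPM (77.0%, 69.1 to 85.8%), and SPHK2, a sphingosine kinase, 19.7 against 25.4 CPM (77.4%, 67.5 to 88.7%). Also among the first 10 were TMEM250 (27.6 against 39.2 CPM), HPRT1, an enzyme of purine salvage (48.3 against 61.9), and NACC2, a transcriptional repressor (52.4 against 66.2). The sites of 5 of them are printed above.

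These genes differed between the libraries labelled LV-miR301a and LV-miR454. In the library labelled LV-miR301a, TMEM250 (26.0 CPM), HPRT1 (44.0), FOSL1 (27.8), NACC2 (53), PTP4A2 (291), CALM2 (499) and SPHK2 (19.8) were also below the vector. Of these, NACC2 and SPHK2 were close to their levels in the library labelled LV-3+4. PTP4A2 was higher than there, and CALM2, HPRT1, FOSL1 and TMEM250 were lower. In LV-miR454, which had the most MIR454 reads, FOSL1 (89.0 CPM), TMEM250 (45.5), HPRT1 (69.6) and CALM2 (681) were above the vector. In the same library PTP4A2 (337) and NACC2 (64.2) were near the vector, and SPHK2 (22) was below it. INHBA was below the vector in both, at 4.26 CPM in the library labelled LV-miR301a and 1.64 CPM in LV-miR454. At the other end, POU6F1, a homeodomain factor, had 9.29 against 6.70 CPM (139%, 110 to 175%) with an 8mer in its UTR. A site in a UTR thus went with ratios in both directions.

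Of the other gene groups, genes of amino acid supply and protein folding stress lay above the vector. Of 26 genes of the ATF4 and unfolded protein responses, 14 had intervals above equality (53.8%) and 1 below, with a median of 0.11. Besides CHAC1 they included ATF4 itself, at 330 CPM in the library labelled LV-3+4 and 291 CPM in LV-vector-34 (114%, 110 to 118%). The serine synthesis enzyme PHGDH had 106 against 83.5 CPM (127%, 119 to 136%), the folate enzyme MTHFD2 203 against 174 CPM (117%, 111 to 122%) and asparagine synthetase (ASNS) 117 against 103 CPM (114%, 108 to 122%). The folding factors HSPA5 (428 against 391 CPM) and PDIA4 (384 against 339 CPM) were also above. The amino acid transporter SLC7A5 was below, at 1340 against 1442 CPM (92.9%, 91.4 to 94.5%). The list's median was 0.07 in the library labelled LV-miR301a, with -0.10 in LV-miR454, and PHGDH stood at 83.9 and 37.3 CPM there. The list's median level in the vector was 144 CPM, a range in which 25.7% of all genes had intervals above equality.

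Cytoskeletal and YAP target genes lay above the vector by small amounts. Of 24 measured, 16 had intervals above equality (66.7%) and 0 below, with a median of 0.11. The list's median level in the vector was 113 CPM, a range in which 25.7% of all genes had intervals above equality. CYR61, a matricellular YAP target, had 87.2 against 73.9 CPM (118%, 110 to 127%), and CTGF, its relative, 63.9 against 54.8 CPM (116%, 107 to 127%). Actin (ACTB) had 5478 against 5123 CPM (107%, 106 to 108%) and non-muscle myosin MYH9 685 against 621 CPM (110%, 108 to 113%). In LV-miR454 the same list had a median of 0.42, with CYR61 at 272 CPM. In the library labelled LV-miR301a the median was 0.07, with CYR61 at 79.3 CPM.

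Mesenchymal and matrix genes had 14 of 35 intervals above equality (40.0%) and 2 below (median 0.07). Their median level in the vector was 35.6 CPM, a range in which 10.1% of all genes had intervals above equality. Type IV collagens COL4A1 (127 against 107 CPM) and COL4A2 (294 against 247 CPM), the main collagens of basement membranes, were both at 119%. COL1A1 had 33.1 CPM in the library labelled LV-3+4, against 25 CPM in LV-vector-34 (133%, 117 to 150%), and stood at 64.1 CPM in the library labelled LV-miR301a. COL3A1 had 14.7 against 9.31 CPM (157%, 130 to 191%). These collagens are also the fibroblast markers whose sum was 54.7 against 40.7 CPM, and the part of other cells in the result was not tested. The other fibroblast markers but FBN1 (4.12 against 3.87 CPM) were under 1 CPM in both. The epithelial list had 9 of 21 above (42.9%) and 2 below, including the junction protein JUP (404 against 347 CPM), E-cadherin (CDH1, 115 against 102 CPM) and, below, the adhesion molecule CEACAM6 (32.9 against 44.6 CPM). The epithelial list's median level in the vector was 132 CPM, a range in which 25.7% of all genes had intervals above equality. Genes of both lists thus lay above the vector.

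Targets of p53 lay lower as a group. Of 26 measured, 11 had intervals below equality (42.3%) and 0 above, with a median of -0.12, the lowest of the 26 lists. Besides CDKN1A they included the p53 ligase MDM2 (47.7 CPM in the library labelled LV-3+4, against 52.3 CPM in LV-vector-34), the death receptor FAS (12.5 against 15.6 CPM), the ribonucleotide reductase subunit RRM2B (45.6 against 54.2 CPM) and BTG2 (20.7 against 24.1 CPM). The list's median over the same vector was 0.13 in the library labelled LV-miR301a, with 0.02 in LV-miR454. MDM2 was at 56.5 CPM and FAS at 17.1 CPM in the library labelled LV-miR301a, above the vector. The library labelled LV-3+4 therefore lay below both the vector and the library labelled LV-miR301a for these genes. The p53 list's median level in the vector was 53.2 CPM, a range in which 9.36% of all genes had intervals below equality.

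G1/S and replication genes had 11 of 35 intervals above equality (31.4%) and 2 below (median 0.05). Their median level in the vector was 52.1 CPM, a range in which 10.1% of all genes had intervals above equality. The replication factors CDC45 (28.9 against 24.7 CPM) and MCM2 (104 against 94.6 CPM) and the polymerase subunit POLA1 (37.9 against 32.0 CPM) were above, and the cyclin CCND3 was below (339 against 363 CPM). The list's median was -0.09 in the library labelled LV-miR301a, with 0.28 in LV-miR454. Genes of G2 and mitosis had 5 of 36 above and 5 below (median 0.00). The mitotic kinase AURKB had 115 against 97.4 CPM, while the kinetochore motor CENPE had 32.6 against 39.9 CPM (81.7% of the vector) and NUF2 28.9 against 34.4 CPM. No single direction held for cell division genes.

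Cholesterol and fatty acid genes had 8 of 27 above (29.6%) and 2 below (median 0.09). Mevalonate kinase (MVK) had 12.9 against 9.16 CPM (141%, 116 to 173%) and the desaturase SCD 540 against 463 CPM (117%, 113 to 120%), but HMGCS1, the synthase that opens the pathway, had 60.1 against 70.0 CPM (85.9%, 79.3 to 93.0%). Growth factor receptors and ligands had 10 of 27 above (37%) and 3 below (11.1%, median 0.09). Among them were IGF1R at 286 against 242 CPM, PDGFB at 7.52 against 5.65 CPM and, below, the EGFR ligand EREG at 73.0 against 91.2 CPM. The cholesterol and growth factor lists had median levels of 57.5 and 50 CPM in the vector. In that range 10.1% of all genes had intervals above equality and 9.36% below. The NRF2 targets, which are high in A549, had 12 of 27 below (44.4%) and 4 above (median -0.03). Of these GPX2, a glutathione peroxidase, had 156 against 193 CPM (81.0%, 77.1 to 85.0%) and ALDH3A1 1551 against 1760 CPM. Their median level in the vector was 878 CPM, where small ratios exclude equality. Above 100 CPM, 15.9% of all genes had intervals below equality.

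**Figure D5:**
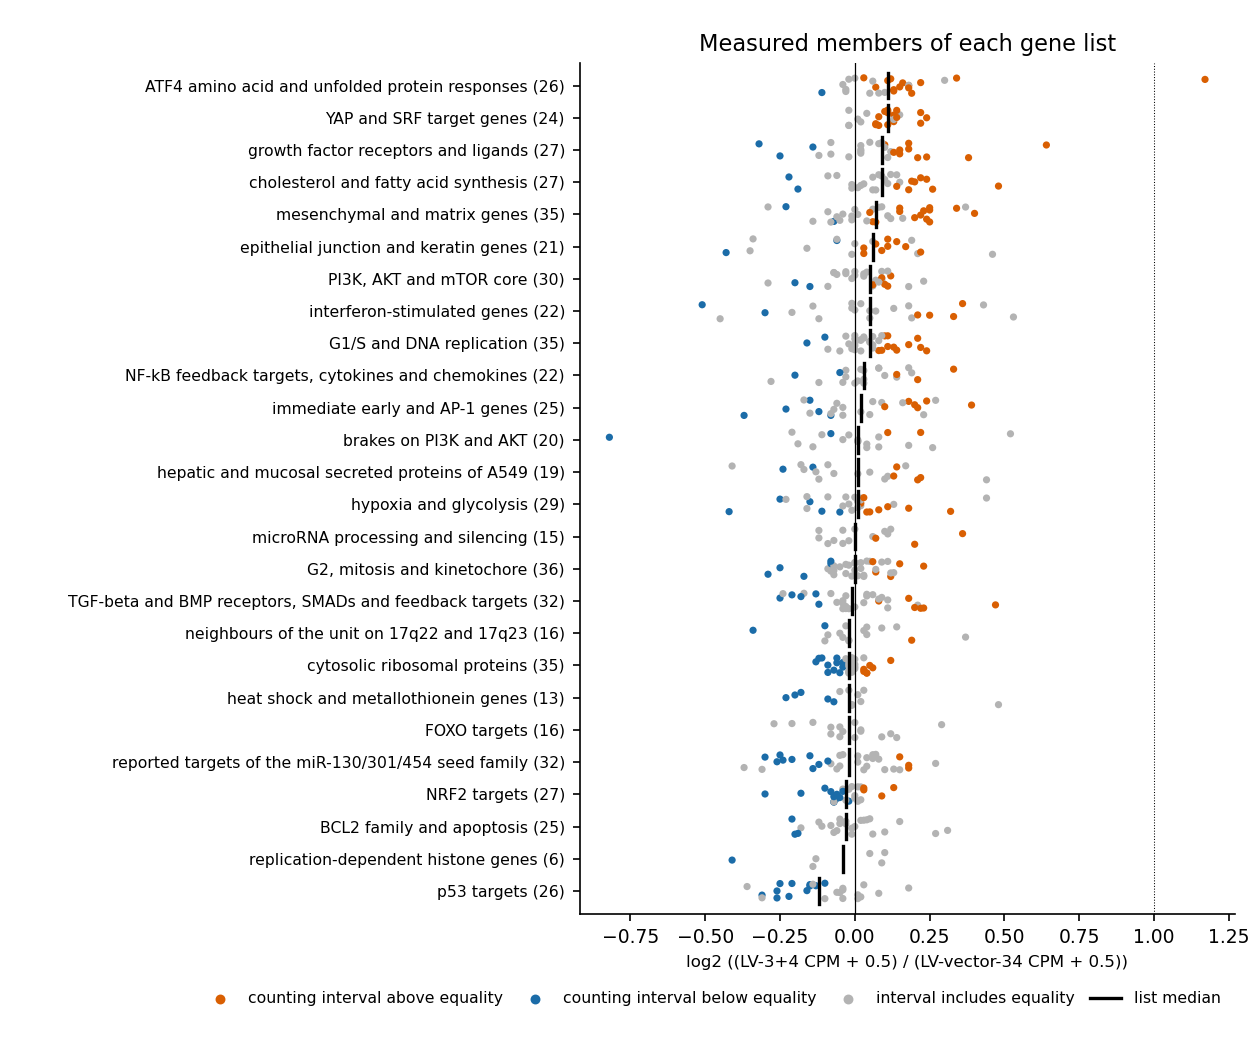
Log2 ratio of the library labelled LV-3+4 over LV-vector-34 for each measured member of 26 gene lists (number of members in brackets), coloured by whether the counting interval lies above or below equality, with the list median as a bar and a dotted line at 2-fold. Medians run from -0.12 (p53 targets) to 0.11 (ATF4 and YAP lists), and CHAC1 is the 1 point past 2-fold.

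The remaining lists had medians from -0.04 (histones) to 0.05 (interferon genes). The TGF-beta and BMP list had 6 above and 5 below of 32 (median -0.01), with the activin receptor ACVR2B at 16.3 CPM in the library labelled LV-3+4, against 11.7 CPM in LV-vector-34 (140%, 118 to 167%). Immediate early genes had 6 above and 5 below of 25 (median 0.02), with ATF3 at 7.31 against 5.44 CPM. NF-kB and inflammation genes had 3 above and 2 below of 22, with the chemokine CXCL2 at 18.6 against 14.8 CPM. Interferon genes had 4 above and 2 below of 22, with IRF7 at 2.24 against 3.40 CPM. Apoptosis genes had 0 above and 3 below of 25. Hypoxia and glycolysis genes had 8 above and 5 below of 29, with PDK1, a brake on pyruvate use that holds an 8mer, at 12.3 against 16.6 CPM (74.0%, 62.3 to 87.9%). Heat shock and metallothionein genes had 0 above and 5 below of 13 (38.5%), led by HSPA1A at 274 against 321 CPM. Their median level in the vector was 158 CPM, a range in which 15.9% of all genes had intervals below equality. Secreted liver and mucosal proteins had 4 above and 2 below of 19, and histones 0 above and 1 below of 6. Ribosomal proteins had 7 above (20%) and 12 below (34.3%) of 35, at a median level of 1098 CPM in the vector. Above 100 CPM, 25.7% of all genes had intervals above equality and 15.9% below. The mitochondrially encoded messages were not analysed here.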

How the data were processed

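Per the labels, each library is poly(A) RNA of 1 A549 line. The authors deposited RSEM expected counts per gene, estimates that are not normalised. Reads were aligned and estimated with Bowtie2 2.3.5.1 and RSEM 1.3.3, and GRCh38.p13 was the build, per the submitters' processing notes. The sources used here do not give the annotation release or strand setting. The table with 7 libraries was used, and the other 2 tables of the series were not used here.

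Expected counts were rounded. Of 44576 entries, 4846 numbered copies (2.02% of counts) were summed per symbol, leaving 39735 genes, 5 of which have numbered copies only. A further 27 entries with date-like names (0.171%) were kept apart. Libraries were scaled by TMM over the 7 libraries (edgeR 4.0.16, R 4.3.3; DESeq2 1.42.0 as an alternative). Ratios were computed in Python 3.11.15 (scipy 1.17.1, pandas 2.3.3, numpy 2.4.6) with a pseudocount of 0.5 CPM and exact 95% intervals. A count of 0 was taken as 3 counts for folds, which is 0.157 CPM in both libraries. These reads carry no molecular identifiers and need not be independent molecules, so intervals and limits hold for counting error alone. No p-value was computed, because each group is 1 library.

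Seed sites were searched on the transcript strand of the longest 3′ UTR of each coding gene (GENCODE 29). List symbols were matched to the table's older symbols through RefSeq synonyms. Named genes were the loci of the unit, up to 12 higher and 12 lower called genes at 5 CPM or more ranked by the interval bound nearest equality, the called members of each list or otherwise the 2 with the largest ratio, up to 6 genes apart from the libraries labelled LV-miR301a and LV-miR454, and family targets and PI3K brakes. Other genes in the text were picked after their values were seen. The members, the rules and all gene lists were chosen with earlier results of these data known. Some genes are not reported here, and 1 called entry is not drawn among the partner sets.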

Additional observations from a re-analysis of the deposited data

How the results depend on the processing

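The scaling made little difference: under DESeq2 size factors, library totals or TMM of the 2 libraries alone, 42 genes were higher and 53 to 55 lower, and with a 99% interval 42 and 53. The count of calls followed the handling of low and shared reads. With no minimum beyond 1 read, 74 genes were higher and 79 lower, at 5 CPM or more 10 and 16, and with a pseudocount of 1 CPM 31 and 35. With numbered copies kept apart 150 were higher and 170 lower, and with the threshold at 1.5-fold 169 and 169. In alternatives added after the data were seen, the interval alone gave 1476 above and 1255 below, and summing overlapping genes and copies, which dilutes a small entry in its set, gave 24 and 35. Genes called in either direction against the other libraries became fewer at 5 CPM or more: 14 against LV-miR301a (83 before), 569 against LV-miR454 (1020), 803 against CRISPRd_miR301a-#2 (1355), 840 against CRISPRd_miR454-#1 (1416) and 350 against CRISPRd_Control (648). The median of 8mer genes minus that of genes without a site was -0.042, and -0.014 for 7mer and 8mer genes together. The medians of 3 lists were at least 0.1 in size under every setting tried. GPR75-ASB3 fell under the threshold with a pseudocount of 1 CPM (0.94). No paired analysis was possible because each group is 1 library, and for the same reason no replicate could be left out. Depth limits calls among low genes, where 3 counts are 0.157 CPM.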
